A study of Mus musculus with 6 samples.

Results

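TRiC, also called CCT, is the cytosolic chaperonin, and its subunits are encoded by 8 genes, Tcp1, Cct2, Cct3, Cct4, Cct5, Cct6a, Cct7 and Cct8. These genes were taken by name, with no threshold on a measured value, although earlier results of these data were known. All 8 of 8 were among the 17348 genes of the expression table and among the 13570 that passed the filter on low counts. The libraries were made from mouse cortex (labelled brain) at E18.5, near the end of gestation, with 3 control and 3 Ybx1 cKO samples, and the floxed line was made and bred in C57BL/6J mice. The control embryos were littermates whose genotype the labels and the study's sequencing methods give as wild type (WT), although the study's results define its control as Ybx1 fl/fl without Cre. The Ybx1 cKO embryos were Nestin-Cre, Ybx1 fl/fl, in which the Nestin promoter drives Cre in neural progenitors and their descendants, and cells that never expressed Nestin keep the gene. Each sample is treated as a separate biological replicate, as the series text states, and the p-values measure the spread between these samples.

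TRiC is built of a pair of stacked rings, each holding 1 copy of every subunit, and it encloses an unfolded protein and closes over it when ATP is hydrolysed. Actins and tubulins are its best known clients and cannot reach their native fold without it. Prefoldin hands nascent actin and tubulin chains to TRiC, phosducin-like proteins assist it, and the tubulin cofactors join the released alpha and beta chains into dimers. Young cortical neurons make large amounts of tubulin for their axons and dendrites.

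The genes lie on 8 different chromosomes. In GRCm38 with the GENCODE M21 annotation they are Tcp1 (chr17:12915701-12925067, plus strand), Cct2 (chr10:117051001-117063814, minus), Cct3 (chr3:88297116-88321767, plus) and Cct4 (chr11:22990519-23003780, plus). The others are Cct5 (chr15:31590800-31601804, minus), Cct6a (chr5:129786998-129846371, plus), Cct7 (chr6:85451514-85468475, plus) and Cct8 (chr16:87483326-87495873, minus). Exons of 4 of them share bases with exons of a gene on the other strand, and whether reads were counted by strand was not given in the sources used here. Tcp1 shared 141 bases with Mrpl18 and 571 with Acat3, Cct6a shared 452 with Psph, Cct7 shared 214 with Pradc1, and Cct8 shared 192 with Usp16. In CPM, counts scaled to the TMM-adjusted library total and not per length, the neighbours had control means between 1.01 CPM for Acat3 and 51.5 CPM for Usp16, where the subunit genes had 279.7 CPM or more. Their log2 fold changes lay between -0.23 (Mrpl18) and 0.08 (Usp16), with no adjusted p under 0.05 in edgeR.

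The sequence before the start site was examined because TRiC holds its subunits in equal numbers. RefSeq promoter entries (GRCm38.p6) were matched for 7 of the 8 genes, and the 250 bases before the start were searched on both strands. A GC box (GGGCGG), the core bound by Sp1-family factors, was present in 7 of 7 windows, beside 50.8% of 17322 promoters of genes in the table. The CCAAT box (CCAAT), whose inverted form is the Y-box after which the Ybx family is named, was present in 4 of 7 (Tcp1, Cct3, Cct6a and Cct7), beside 35.0% of all promoters. The ETS core (CCGGAAG) was present in 2 of 7 (Cct2 and Cct8), beside 10.7%. None of the 7 windows held the E-box CACGTG (7.43% of all promoters), the heat shock pattern GAANNTTC (5.44%), the CRE TGACGTCA (2.22%), the NRF1 core GCGCATGC (3.49%) or TATAAA (7.92%). GC content ran from 45.2% for Cct5 to 66.4% for Cct7, with a median of 58.4% over all promoters, and CpG dinucleotides from 14 to 24, with a median of 13. In 6 of 7 windows the annotation also places an exon of a gene transcribed from the other strand, the exception being Cct2. Exons of the subunit gene itself reach into the windows of Cct6a (250 bases), Cct3 (19) and Cct8 (4). The windows of Cct6a (from 129787106) and Tcp1 (from 12916079) begin inside the GENCODE genes, so for these 2 the RefSeq start lies after the GENCODE gene start. The windows of Cct2 (chr10:117063853-117064102, minus strand), the subunit gene with the highest level per length, Cct5 (chr15:31601847-31602096, minus), with the most negative log2 fold change, Cct7 (chr6:85451255-85451504, plus) and Cct8 (chr16:87495870-87496119, minus) show how differently the same motifs are placed. They are written 5′ to 3′ toward the start site, with capitals marking every searched motif on either strand.
Cct2: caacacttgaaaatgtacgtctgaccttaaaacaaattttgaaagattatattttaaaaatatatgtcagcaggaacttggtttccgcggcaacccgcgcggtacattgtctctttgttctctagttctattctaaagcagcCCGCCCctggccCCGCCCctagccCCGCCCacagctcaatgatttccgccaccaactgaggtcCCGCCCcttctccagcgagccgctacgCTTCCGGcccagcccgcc
Cct5: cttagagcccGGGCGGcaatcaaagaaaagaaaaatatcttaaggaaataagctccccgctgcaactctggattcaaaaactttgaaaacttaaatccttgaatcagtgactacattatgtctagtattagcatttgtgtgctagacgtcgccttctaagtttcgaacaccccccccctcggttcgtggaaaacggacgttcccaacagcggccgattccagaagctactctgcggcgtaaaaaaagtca
Cct7: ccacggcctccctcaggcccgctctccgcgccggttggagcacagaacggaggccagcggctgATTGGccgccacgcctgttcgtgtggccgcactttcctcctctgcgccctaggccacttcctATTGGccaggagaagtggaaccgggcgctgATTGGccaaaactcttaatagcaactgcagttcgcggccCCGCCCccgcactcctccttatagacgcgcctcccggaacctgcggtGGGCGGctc
Cct8: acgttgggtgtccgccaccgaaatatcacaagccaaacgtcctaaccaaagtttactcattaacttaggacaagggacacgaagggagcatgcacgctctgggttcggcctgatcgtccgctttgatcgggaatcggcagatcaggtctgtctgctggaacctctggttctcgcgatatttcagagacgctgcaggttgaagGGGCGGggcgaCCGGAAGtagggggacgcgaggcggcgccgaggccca
Cct2 carried 4 GC boxes, at 108, 96, 84 and 45 bases before the start, and an ETS core at 18 bases. Cct5 carried a GC box only, at 240 bases. Cct7 carried 3 CCAAT boxes and 2 GC boxes, and Cct8 a GC box at 48 bases followed by an ETS core at 37 bases. The genes with a CCAAT box had log2 fold changes from -0.20 (Cct7) to -0.01 (Cct6a), and those without it from -0.26 (Cct5) to -0.04 (Cct8), which are overlapping ranges.

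The libraries held 15091951 to 16885451 estimated counts each, and 3 counts, the limit that a count of 0 allows, were worth 0.178 to 0.199 CPM. The smallest subunit count in any library was 3672 (Cct3 in control replicate 3). The spread among cKO libraries was very small for Tcp1 (SD 1.82 CPM at a mean of 332 CPM). Counting error is therefore not small beside the spread in every gene and group. Ybx1 itself was at 1014, 1296 and 955 CPM in the control and at 23.9, 24.8 and 24.9 CPM in the cKO libraries, with a log2 fold change of -5.47 (SE 0.164, adjusted p = 6.95e-07, edgeR). Summed TPM of 8 cortical neuron markers was 2326 to 3250 in control and 2606 to 2972 in cKO, and the 4 choroid plexus markers were each under 1 TPM. Summed levels of 7 progenitor markers (336 to 388 against 400 to 419 TPM), 4 microglial markers (41.1 to 41.4 against 48.4 to 51.2) and 4 meningeal markers (2.69 to 3.40 against 4.65 to 5.52) were higher in cKO without overlap, and the other lists overlapped. TPM values as a whole were shifted upward in cKO, with 19.2% of all genes higher without overlap and 2.43% lower. Relative to the median log2 ratio of all genes the progenitor sum was at 0.0217, the microglial at 0.13 and the meningeal at 0.59. In bulk tissue fewer cells of a type and less RNA per cell cannot be told apart, and the part of these differences in the values below was not tested. The 4 Y-linked genes tested passed the adjusted threshold as lower in cKO (summed counts 3686 to 4406 against 24 to 38), so sex and genotype cannot be told apart. No subunit gene lies on X or Y, but an effect of sex on them was not tested.

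All 8 subunit genes were abundant. On the authors' TPM scale, which divides by transcript length and so allows genes to be compared, mean levels over the 6 libraries ran from 321 TPM for Cct7 to 489 TPM for Cct2, at ranks 271 to 451 of the 17348 genes. The order was Cct2 (489 TPM), Cct5 (400.3), Cct6a (372), Cct3 (369), Tcp1 (354), Cct4 (351), Cct8 (321) and Cct7 (321). Cct2 was the highest subunit in 6 of 6 libraries, and its range (483 to 499 TPM) did not overlap that of Cct5 (371 to 434 TPM). Every other gene overlapped its next neighbour in range, and from Cct6a down a gene exceeded the next in 3 to 5 of the 6 libraries. Within a library the highest subunit exceeded the lowest by 1.53 to 1.68-fold, and the coefficient of variation among the 8 was 13.8% to 17.7%. The paralogs known from testis were barely detected: Cct6b was at 0.09 to 0.70 TPM (1 to 7 counts) and Cct8l1 at 0 to 0.33 TPM (0 to 4 counts), and neither passed the filter.

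**Figure D1:**
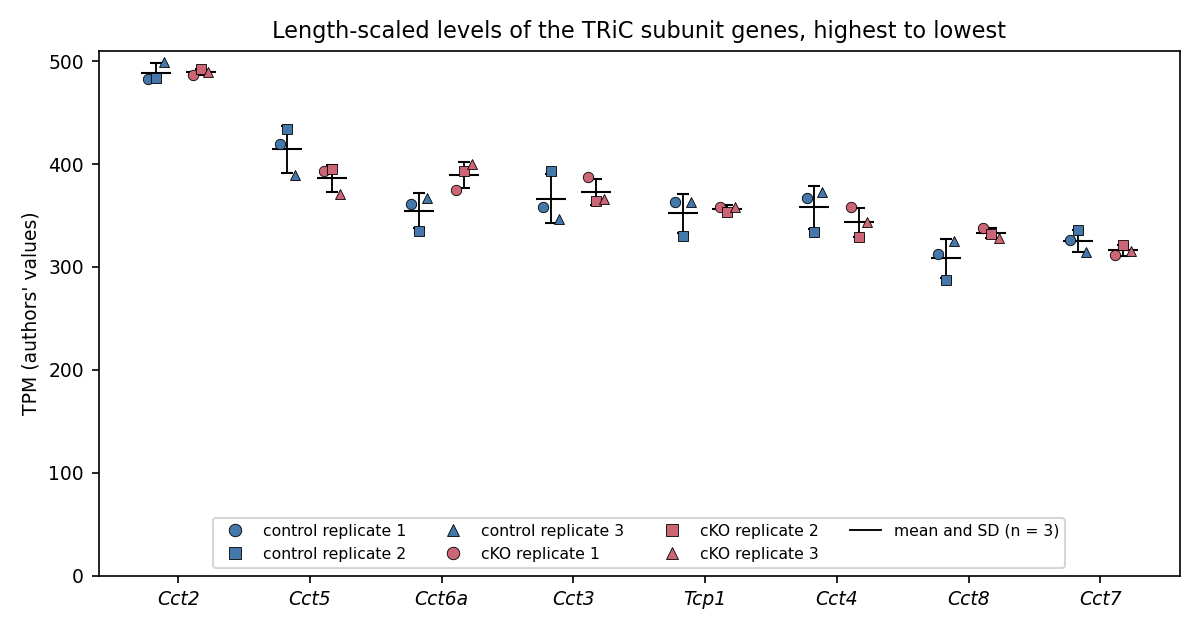
TPM of the 8 TRiC subunit genes (vertical axis, linear from 0), ordered from the highest to the lowest mean, with points for the 3 control (blue) and 3 cKO (red) libraries and lines for the mean and SD. Cct2 stands above the rest in every library, and the other genes form a series of overlapping ranges between 288 and 434 TPM.

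The comparison of cKO with control asked whether loss of Ybx1 was accompanied by altered levels of the chaperonin transcripts. No subunit gene passed the adjusted threshold of 0.05 in edgeR's quasi-likelihood test (0 of 8, where 0.0737% of all genes did), and none had an unadjusted p under 0.05 in the lower (3.49% of all genes) or higher (3.14%) direction. DESeq2 and edgeR's exact test likewise called 0 of 8 after adjustment, and DESeq2 gave 1 of them, Cct4, an unadjusted p under 0.05 (3.52% of all genes in that direction). All 8 log2 fold changes were below 0 (in TPM, on which the median of all genes was itself shifted upward, 3 of 8 were), which held for 49.4% of all genes, with a median of -0.14 beside 0.0027 over all genes tested. The intervals allow each gene a cKO level between 0.685 and 1.16 times the control level, with the lowest bound for Cct5 and the highest for Cct6a, so that 1.5-fold changes of any of the 8 lie outside the 95% intervals. The lower bounds of the others ran up to 0.845 (Cct6a). In 5 of 8 genes (Tcp1, Cct2, Cct4, Cct5 and Cct7) all cKO libraries lay under all control libraries in CPM on TMM-scaled totals, beside 6.93% of all genes, and in 0 of 8 the reverse was true, beside 7.35%, while in TPM the groups of these 5 genes overlapped. With 3 against 3 samples the smallest exact permutation p (two-sided) is 0.1. Every gene whose groups do not overlap has this value, so it adds nothing to the separation of these 5.

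In textbook accounts Tcp1, Cct2, Cct4 and Cct5 encode the subunits with high affinity for ATP, which face 1 side of the ring, and the other 4 encode those with low affinity. Cct5 encodes the epsilon subunit, whose mutation causes a sensory neuropathy in people. It was at 304, 360.5 and 272 CPM in the control libraries and at 264, 267 and 250.5 CPM in the cKO libraries. All cKO values were below the lowest control value, by a narrow margin, and control replicate 2 stood well above the rest. The cKO mean was 83.5% of the control mean (261 ± 8.89 against 312 ± 45.0 CPM, SD, n = 3 each), and the log2 fold change was -0.26 (SE 0.126, 95% interval -0.55 to 0.03, adjusted p = 0.792, edgeR).

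Cct4, the delta subunit gene, was at 278, 289.8 and 272 CPM in control and at 251, 233 and 242 CPM in cKO. The groups were clearly apart, and their spreads were alike. Its log2 fold change was -0.21 (SE 0.0997, 95% interval -0.43 to 0.02, adjusted p = 0.786, edgeR), and the cKO mean was 86.5% of control. Cct4 had the smallest unadjusted p of the 8, 0.0656 in edgeR, followed by 0.0698 for Cct5.

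Cct2, the beta subunit gene, was at 374, 429 and 372 CPM in control and at 349, 356 and 353 CPM in cKO. Tcp1, which encodes the alpha subunit and gave the complex its name, was at 362, 376 and 349 CPM in control and at 332, 329.8 and 333 CPM in cKO. In both genes the cKO libraries lay close together just under the lowest control library. The log2 fold changes were -0.15 for Cct2 (SE 0.107, adjusted p = 0.854) and -0.13 for Tcp1 (SE 0.0992, adjusted p = 0.857, both edgeR).

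Among the subunits of low ATP affinity, Cct7 (eta) was at 319, 375 and 296 CPM in control and at 282, 295 and 287 CPM in cKO. The highest cKO library was within 2 CPM of the lowest control library, so the separation was slight. The log2 fold change was -0.20 (SE 0.119, 95% interval -0.47 to 0.07, adjusted p = 0.823, edgeR).

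Cct3, whose gamma subunit is a contact of prefoldin, was at 269.8, 339 and 251 CPM in control and at 270.0, 256 and 257 CPM in cKO. The groups overlapped, and the difference of the means rested on control replicate 2, without which the log2 fold change was 0.0028 in place of -0.14 (SE 0.131, adjusted p = 0.875, edgeR); without control replicate 3 it was -0.22.

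Cct6a (zeta) was at 308, 327 and 301 CPM in control and at 296, 313 and 317 CPM in cKO. Cct8 (theta) was at 297, 313 and 298 CPM in control and at 298, 295 and 291 CPM in cKO. These were the subunit genes with the smallest differences, and their groups overlapped. The log2 fold changes were -0.01 for Cct6a (SE 0.101, 95% interval -0.24 to 0.22, adjusted p = 0.986) and -0.04 for Cct8 (SE 0.0979, 95% interval -0.26 to 0.18, adjusted p = 0.953, both edgeR), and that of Cct6a was 0.0205 without control replicate 2 and 0.0169 without cKO replicate 1.

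**Figure D2:**
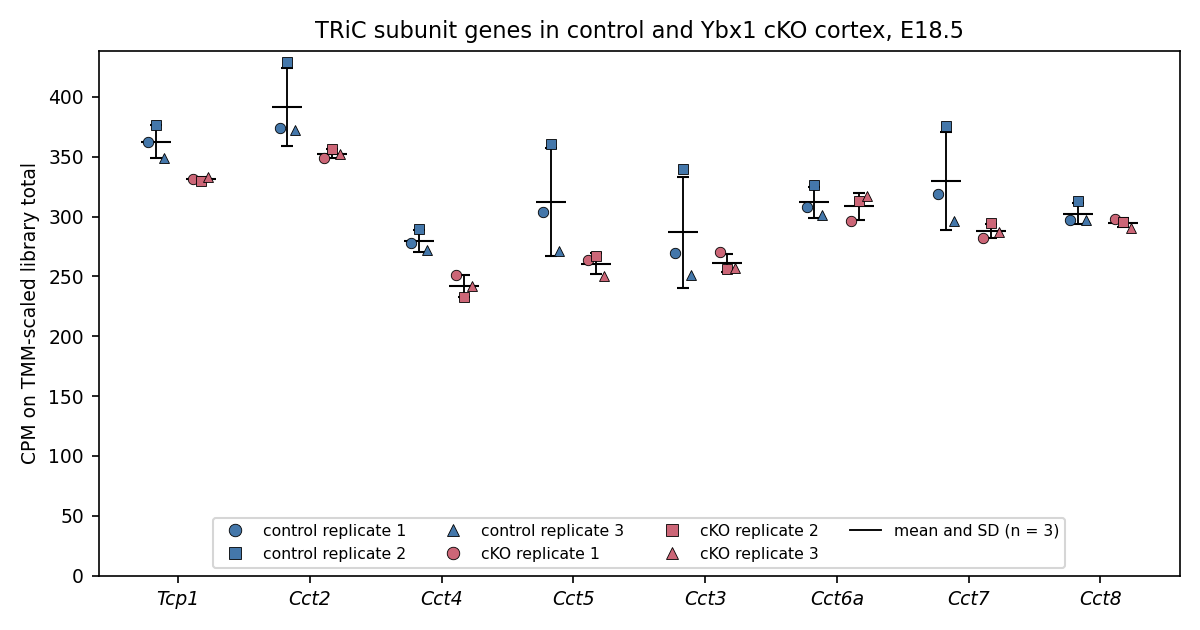
CPM on TMM-scaled totals (vertical axis, linear from 0) for the 8 subunit genes in 3 control (blue) and 3 cKO (red) libraries, marker shapes giving the replicate number and lines the mean and SD; the high-affinity subunits stand at the left. Control replicate 2 (blue square) is the highest of the 6 libraries for every gene, and the cKO points of Tcp1, Cct2, Cct4, Cct5 and Cct7 lie below all control points, which they do not in TPM.

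Control replicate 2 was the highest of the 6 libraries for 8 of 8 subunit genes, which held for 33.6% of all genes. In log2 CPM centred on each gene's mean it stood at a median of 0.18 over the members, against 0.0042 over all genes, while the other 5 libraries lay between -0.0791 and 0.0303. The control SD exceeded the cKO SD in 7 of 8 subunit genes and in 76.9% of all genes. Without that library the median of the 8 was -0.0872, and 6 of 8 were below 0. The log2 fold changes were then -0.14 for Cct5, -0.0936 for Cct7, -0.0807 for Cct2 and -0.0124 for Cct8, and those of Tcp1 and Cct4 were -0.10 and -0.18. The separation of the groups cannot change when the highest control library is left out. A correction of each library for transcript length and GC content left 3 of 8 genes lower without overlap (Cct2, Cct4 and Cct5), beside 10.1% of all genes under that correction. It gave 2 of 8, Cct4 and Cct5, an unadjusted p under 0.05, beside 6.54% of all genes, and a median of -0.17.

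**Figure D3:**
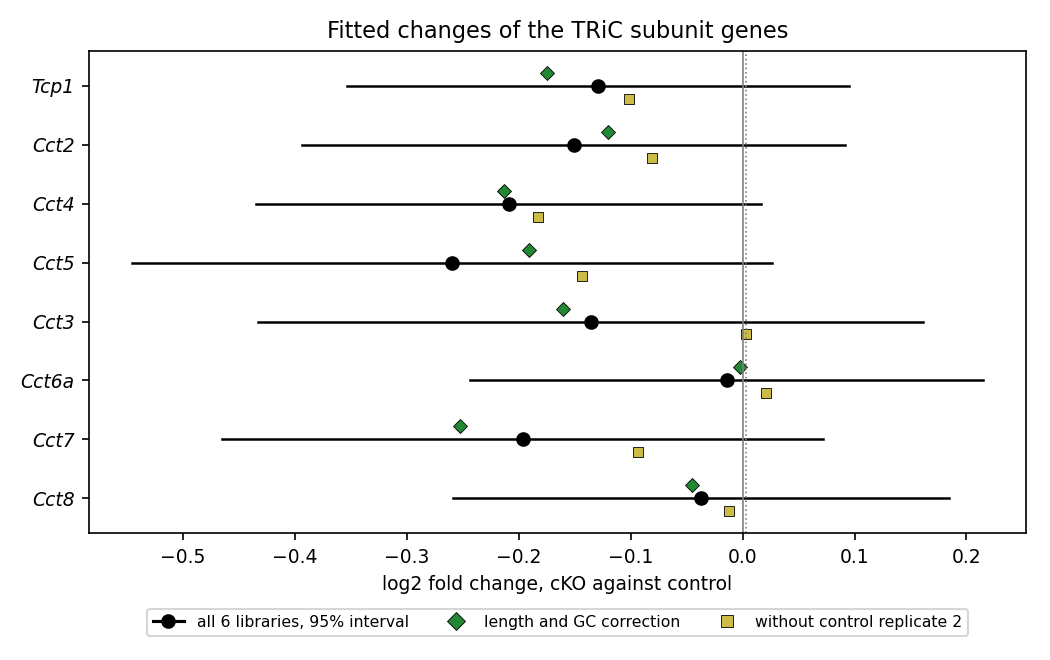
Log2 fold change of each subunit gene, cKO against control (horizontal axis), from all 6 libraries with its 95% interval (black), after the length and GC correction (green diamonds) and without control replicate 2 (yellow squares); the dotted line is the median of all genes tested. All 8 intervals include 0, and leaving out control replicate 2 brings Cct3 and Cct6a to the other side of 0.

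The direction of several subunit genes depended on the scale of the values. On the TPM scale the median log2 ratio of all genes was 0.14, against 0.0030 on TMM-scaled CPM and 0.0452 on the FPKM scale, so a gene had to be read relative to that shift. The TPM log2 ratios of the subunits ran from -0.10 (Cct5) to 0.13 (Cct6a), with 5 of 8 above 0 and a median of 0.0105, which is -0.13 relative to all genes. On each of the 3 scales all 8 subunit genes were below the median of all genes. In TPM none of the 8 was lower without overlap (2.43% of all genes were), and 2 of 8, Cct6a and Cct8, were higher without overlap, beside 19.2% of all genes. Cct6a went from 355 ± 17.2 to 389 ± 13.0 TPM and Cct8 from 308 ± 19.1 to 333 ± 4.95 TPM (SD, n = 3 each), and relative to all genes their log2 ratios were -0.0098 and -0.0341.

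Summed over the 8 genes, TRiC transcripts came to 2991, 2933 and 2979 TPM in control and 3006, 2981 and 2972 TPM in cKO. The groups overlapped and differed by less than the spread between controls (2968 ± 30.6 against 2986 ± 17.8 TPM, SD, n = 3 each; exact permutation p = 0.5). In CPM on TMM-scaled totals the sum was 2577 ± 208 in control and 2339 ± 7.73 in cKO without overlap (SD, n = 3 each; exact permutation p = 0.1, the smallest possible), and in FPKM it was 1378 ± 139 and 1286 ± 22.7 with overlap (exact permutation p = 0.4).

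The make-up of the sum does not depend on scaling between libraries. Cct6a made up 12.1%, 11.4% and 12.3% of the summed TPM in control and 12.5%, 13.2% and 13.5% in cKO. Its share was thus higher in all cKO libraries, by 1.09 percentage points on average. Cct8 made up 10.5%, 9.80% and 10.9% in control and 11.2%, 11.1% and 11.05% in cKO, higher by 0.758 points, again without overlap. For both, the exact permutation p was 0.1 (two-sided), the smallest possible, and 0.4 after Benjamini-Hochberg adjustment over the 8 shares. Cct5 had the most negative difference of shares (-1.04 points, from 13.97% ± 0.862 to 12.9% ± 0.399, SD, n = 3 each), with overlap and an exact permutation p of 0.2. Cct4 and Cct7 differed by -0.563 and -0.377 points, and Tcp1, Cct2 and Cct3 by -0.0797 to 0.12 points.

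The genes that act before, beside and after TRiC were taken as lists of the same folding pathway, with values on the TMM-scaled counts, where the median of all genes was 0.0027. Over all genes tested, 49.4% were below 0, and 3.49% had an unadjusted p under 0.05 in edgeR as lower in cKO and 3.14% as higher. Groups did not overlap in 6.93% as lower and in 7.35% as higher. These shares stand beside the counts of every list below. No gene in any of these lists passed the adjusted threshold in edgeR, and none had an unadjusted p under 0.05 as higher in cKO. Of 9 prefoldin and prefoldin-like genes, all 9 had a log2 fold change below 0, with a median of -0.15, and 1 had an unadjusted p under 0.05. That gene was Pfdn5, which encodes a prefoldin subunit, at 78.2, 120.0 and 75.9 CPM in control and 70.2, 62.2 and 66.5 CPM in cKO. Its cKO libraries were all below the controls, again with control replicate 2 far above (log2 fold change -0.46, SE 0.177, unadjusted p = 0.0278, adjusted p = 0.657, edgeR). Of the 3 phosducin-like genes tested, all 3 were below 0, from -0.13 (Txndc9) to -0.0035 (Pdcl3), and Pdcl2 was not in the table. The 6 tubulin cofactor genes, which handle tubulin after release, ran from -0.34 (Tbcc) to 0.05 (Tbce), with 4 below 0 and a median of -0.19.

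The clients themselves were measured as well. Of 14 actin and tubulin genes, 12 were below 0 (49.4% of all genes) and 5 were lower in cKO without overlap (6.93%). An unadjusted p under 0.05 in edgeR was found for 4, all of them tubulins and lower in cKO (3.49% of all genes). Tubb2b, a beta-tubulin of migrating neurons, was at 4656, 5484 and 4361 CPM in control and at 3210, 3519 and 3378 CPM in cKO. The groups were far apart for this gene (log2 fold change -0.52, SE 0.126, unadjusted p = 0.0026, adjusted p = 0.384, edgeR). Tubb5 was at -0.51 (SE 0.148, adjusted p = 0.482), Tuba1a, the main alpha-tubulin of young neurons, at -0.36 (SE 0.138, adjusted p = 0.664) and Tubb2a at -0.42 (SE 0.178, adjusted p = 0.731, edgeR). Tubb2a was at 554, 744 and 437.2 CPM in control and at 436.7, 426 and 433 CPM in cKO, so its groups were barely apart. In each of these 4 tubulin genes control replicate 2 was the highest library, which held for 33.6% of all genes. The median of the list was -0.15, close to that of the subunits.

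Set against the chaperonin, the summed TPM of the tubulins was 27277 ± 1905 in control and 23193 ± 561 in cKO, lower without overlap, and that of Actb and Actg1 was 5957 ± 186 and 6079 ± 345 with overlap (SD, n = 3 each). Tubulin and actin TPM per TRiC TPM, a ratio within each library, was 11.2, 12.02 and 10.4 in control and 9.44, 10.1 and 9.85 in cKO. The cKO ratios were all below the control ratios (11.2 ± 0.794 against 9.80 ± 0.342, SD, n = 3 each; exact permutation p = 0.1, the smallest possible).

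Of 13 other clients, 9 were below 0 with a median of -0.06, from -0.33 for Cdc20, the activator of the anaphase-promoting complex, to 0.21 for Stat3, and 0 had an unadjusted p under 0.05. The 3 BBS genes, which encode chaperonin-like proteins that assemble the BBSome with TRiC, ran from -0.16 (Bbs12) to 0.11 (Bbs10). The ribosome-bound chaperones, which meet chains before TRiC, had 4 of 4 below 0, and Naca, the alpha subunit of the nascent polypeptide-associated complex, had an unadjusted p under 0.05 (log2 fold change -0.28, SE 0.119, unadjusted p = 0.0404, adjusted p = 0.727, edgeR). Of 19 genes of the cytosolic Hsp70 and Hsp90 system, 11 were below 0 (49.4% of all genes) with a median of -0.08. The constitutive Hsp90ab1 was at 2476, 2698 and 2343 CPM in control and 1999, 2143 and 2076 CPM in cKO, lower without overlap (log2 fold change -0.27, SE 0.111, unadjusted p = 0.0366, adjusted p = 0.703, edgeR). Hsp90aa1, the heat-inducible form, was at 1014, 955 and 1014 CPM in control and 1141, 1066 and 1090 CPM in cKO, higher without overlap (log2 fold change 0.14, SE 0.103, adjusted p = 0.854, edgeR); it and Ptges3 below were named after their values were seen. Ptges3, the Hsp90 co-chaperone p23, was likewise higher without overlap (log2 fold change 0.17, SE 0.104, adjusted p = 0.819, edgeR). The 9 mitochondrial chaperones and proteases had a median of -0.04, from -0.31 (Hspe1) to 0.17 (Dnaja3).

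**Figure D4:**
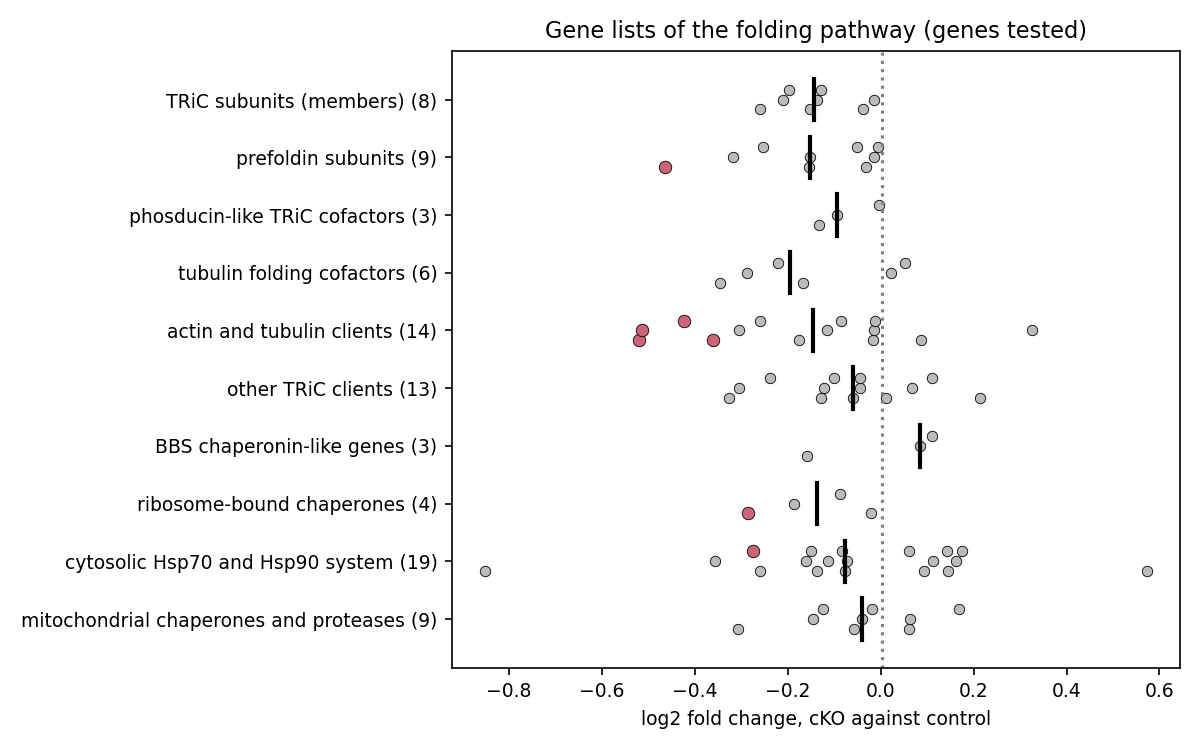
Log2 fold change, cKO against control (horizontal axis), of every tested gene in the subunit list and the 9 companion lists, with list medians as black bars, genes with an unadjusted p under 0.05 in red and the median of all genes as a dotted line. The TRiC, prefoldin, tubulin cofactor, and actin and tubulin lists have medians between -0.19 and -0.14, and the red points are Pfdn5, Tubb2b, Tubb5, Tuba1a, Tubb2a, Naca and Hsp90ab1, all at the left.

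The profile of each subunit gene over the 6 libraries was set beside the mean of the 8. The mean profile of the 8, in log2(CPM + 1) centred on each gene, was 0.0352, 0.20 and -0.0256 in control and -0.0646, -0.0658 and -0.0752 in cKO. The root mean square difference from it was 0.0198 for Cct2, the nearest subunit, and 0.0819 for Cct5, the farthest, while the median over other tested genes was 0.187 and their 1st percentile 0.0479. Of the members, Tcp1, Cct2 and Cct7 were nearer than that percentile, although each member is itself part of the mean. The 5 genes outside the list with the most similar profile were Sun2 (0.0132), a nuclear envelope protein of the LINC complex, Vhl (0.0174), a ubiquitin ligase subunit and TRiC client, Ppp1r13b (0.0181), a p53 cofactor, Plrg1 (0.0205), a spliceosome component, and 1110051M20Rik (0.0207). The mean profile has a small amplitude, so a gene that hardly varied would also lie near it, and Cct5 ranked 966 in nearness among the tested genes. The likeness therefore does not show that the subunit genes vary together. With 6 libraries a profile holds little information, and the likeness is given as a description.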

How the data were processed

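Cortical total RNA was extracted with Trizol, and mRNA libraries were sequenced on the DNBSEQ platform. The authors deposited RSEM-type estimated counts per gene and library (89.4% of them whole numbers), with TPM and FPKM as the authors computed them. The submitters' processing notes name HISAT2 2.2.1, Bowtie2 2.4.5, RSEM 1.3.1 and GRCm38. Annotation and strand setting were not given in the sources used here. Of the table's columns, 6 hold the authors' group means and were not used, nor were those of their own comparisons.

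Estimated counts were rounded, filtered with filterByExpr, scaled by TMM and tested with edgeR 4.0.16 (quasi-likelihood, R 4.3.3), with Benjamini-Hochberg adjustment over the 13570 genes tested at a threshold of 0.05. The common biological coefficient of variation was 0.147. The pipeline was tested on counts simulated for 3 against 3 libraries, with the same dispersion in every gene and group. It found 34.3% of 1.5-fold, 94% of 2-fold and 100% of 4-fold changes, with 7 false calls. In the real libraries the control SD exceeded the cKO SD in 76.9% of all genes, which the simulation did not include. TPM and CPM sums and shares were compared by two-sided exact permutation tests over libraries (SciPy 1.17.1). Totals were 15091951 to 16885451 estimated counts, and floors cover counting error only. No 2 replicates agreed within sampling noise (chi-square per degree of freedom 3.41 to 62.4).

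Replicate numbers in the labels were taken as a possible pairing, since deviations from the group means correlated across genes within every same-numbered pair (r = 0.103, 0.101 and 0.284). Control replicate 2 with cKO replicate 1 was also above 0 (r = 0.0551), and the other unlike-numbered pairs were below 0. Because deviations within a group sum to 0, values above 0 in same-numbered pairs pull the unlike-numbered ones below 0. The unlike-numbered pairs are therefore no separate evidence of pairing. The labels name no litters. Replicate numbers entered as a block in an alternative only, and the main fit did not use them. DESeq2 1.42.0 and other filters, scalings, a length and GC correction and leaving out each library were the other alternatives.

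The subunit genes, the companion lists and the tests were chosen with earlier results of these data known. Named genes were Ybx1, the 8 subunits, the paralogs Cct6b and Cct8l1, annotated overlapping genes and the 5 genes with the most similar profile. From each companion list they were the genes with an unadjusted p under 0.05 (at most 4), otherwise those with the lowest and the highest log2 fold change.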

Additional observations from a re-analysis of the deposited data

How the results depend on the processing

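No subunit gene had an adjusted p under 0.05 in any of the 16 alternatives, nor under 0.1 in the fit of all libraries. The smallest was 0.176, for Cct4 with the length and GC correction, while the number of all genes past the threshold was 10 in the fit of all libraries, 97 by the exact test of edgeR, 99 by DESeq2, 155 after the length and GC correction (141 with the block added), 122 without control replicate 2 and 19 without control replicate 3. The cause of these differences was not tested. The number of subunit genes with an unadjusted p under 0.05 as lower in cKO was 0, and became 1 with DESeq2 (Cct4), 2 with the length and GC correction (Cct4 and Cct5) and 3 when the replicate block was joined to it (Cct4, Cct5 and Cct7), beside 3.52%, 6.54% and 7.21% of all genes. With a library left out it ranged from 0 to 1 (Cct4 without control replicate 2, Cct5 without control replicate 3), beside 6.55% and 7.97% of all genes in those 2 fits. The number lower without overlap was 5, beside 6.93% of all genes. It became 3 with the length and GC correction, with or without the block, beside 10.1% of all genes. Leaving out 1 library gave 5 to 6, while the share of all genes was also larger, at 9.0% to 16.5%. That share was 14.8% when control replicate 2 was the library omitted. The count of 5 is no evidence there, because that library was the highest for 8 of 8 genes. Leaving it out cannot change the separation. The median of the 8 ranged from -0.20 to -0.0872 with a library left out. The replicate block alone changed no call of a subunit gene, with a median of -0.14 and 11 genes called in all. The log2 ratio of the summed level, 0.0091 in TPM, was -0.0996 in FPKM and -0.14 in CPM. Directions reversed for Cct3 (0.0028) and Cct6a (0.0205) without control replicate 2, and for Cct6a (0.0169) without cKO replicate 1; with a library left out, Cct3 ranged from -0.22 to 0.0028 and Cct6a from -0.0388 to 0.0205. Of the other 280 values recomputed, none crossed its threshold, and counts stayed within 1.5 times. The sign turned in 6 of them, all shares of Tcp1, Cct2 or Cct3 in the summed TPM with a library left out, by less than the spread between replicates. With 3 embryos a group, differences of 1.5-fold and smaller were often below what the test could call, and 34.3% of simulated 1.5-fold changes were found. Exact permutation tests could not go below 0.1.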
